A study of Zea mays with 6 samples.

Results

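A set of 10 genes of the oxylipin pathway, 8 lipoxygenases and the 12-oxophytodienoate reductases OPR7 and OPR8, were followed in maize seedling leaves with and without ZmPP2C45, a protein phosphatase 2C. They were taken by identifier from the table of gene counts, in which they are 10 of 45953 features. Of the lipoxygenases, 5 are classed as 9-lipoxygenases, namely Zm00001d042541, Zm00001d042540, Zm00001d033623, Zm00001d033624 and Zm00001d013493. Another is LOX6 (Zm00001d002000), and the 2 classed as 13-lipoxygenases are LOX8, also called ts1 (Zm00001d003533), and LOX10 (Zm00001d053675). OPR7 is Zm00001d032049 and OPR8 is Zm00001d050107. The 3 control libraries came from leaves of seedlings 2 weeks old of the inbred line KN5585, labelled WT. The other 3 libraries came from leaves of the same age of a ZmPP2C45 knockout made by genome editing in KN5585, labelled PP2CKO. The labels name no treatment or insect feeding for either line and do not describe the edited allele or the number of independent edited lines. They number the libraries of each line 1 to 3 without saying whether these were separate plants or pools, so the p-values measure only the spread between libraries, which may be technical.

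Lipoxygenases add oxygen to polyunsaturated fatty acids and are classed by the carbon they attack. In leaves, 13-lipoxygenases in plastids start the routes to jasmonic acid and to green leaf volatiles, both of which act in defence against chewing insects. The reductases OPR7 and OPR8 act later in the jasmonate route, in peroxisomes, where they reduce 12-oxophytodienoic acid. Products of 9-lipoxygenases include the ketols and death acids that maize makes during infection and wounding. The title of the series places ZmPP2C45 in the control of chemical defence against herbivores, and the comparison here asks whether transcripts of these enzymes differ when it is lost.

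Library totals ran from 15923668 to 16368195 counts in WT and from 16314657 to 20502449 in PP2CKO. The scaling factors by trimmed mean of M values (TMM) ran from 0.995 to 1.15 in WT and from 0.869 to 0.982 in PP2CKO. Every WT factor thus lay above every PP2CKO factor. Levels are given below as counts per 1000000 (CPM) on these scaled totals. The genes were not ranked by level against each other per unit of transcript length, since lengths were not used here. The tissue label could not be checked at depth, because the plastid leaf genes rbcL and psbA were listed at 0 in all 6 poly(A)-selected libraries and nuclear leaf markers were not matched by name. The targeted gene was likewise not analysed here under its own name.

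None of the 10 genes differed between the lines past the threshold of an adjusted p below 0.05, in either direction. All 10 passed the low-count filter and were tested with edgeR's quasi-likelihood test, adjusted over 21206 features, and 0 were called higher and 0 lower. The background is that 5.15% of tested features were called higher in PP2CKO, 2.08% were called lower, and 7.23% were called in all. At that rate a set of 10 genes with no call is near the background. DESeq2 and limma voom also called 0 of the 10. Over all features, DESeq2 called 1530 higher and 692 lower of 23065, and limma voom called 841 higher and 374 lower of 21206. At an unadjusted edgeR p below 0.05 there were 2 of the 10, LOX8 on the higher side and Zm00001d042541 on the lower, where 23.2% of all tested features passed that bound. The fitted log2 fold change was below 0 in 7 of the 10 genes, against 51.0% of all features. Its median was -0.14 over the members and -0.01 over all features.

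**Figure D1:**
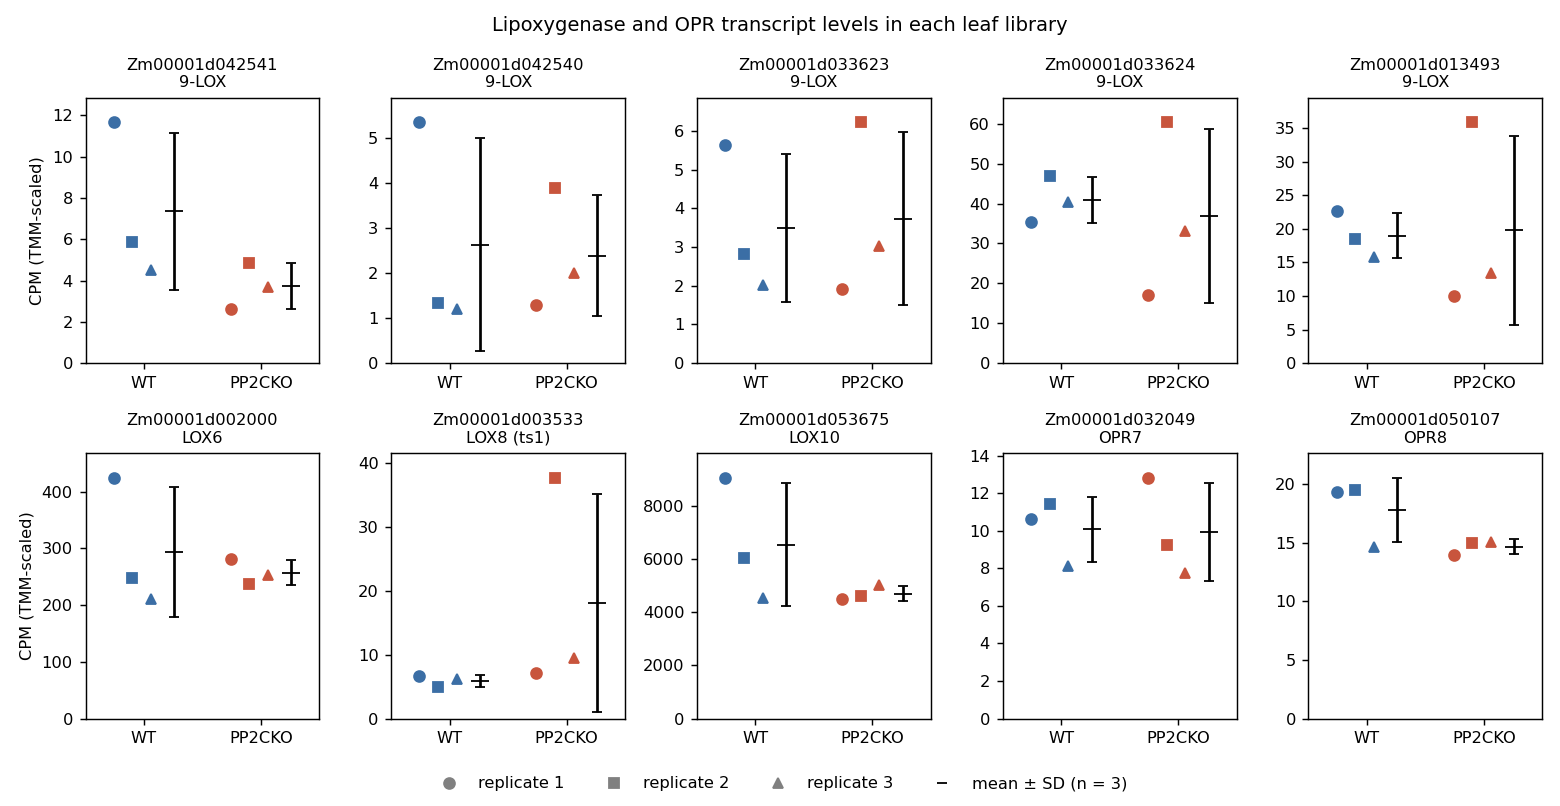
Level of each of the 10 genes in each library, in TMM-scaled CPM on a linear axis from 0, with its own scale per panel; symbols mark the replicate number and bars the mean ± SD (n = 3 per line). In LOX8 all 3 PP2CKO libraries lie above WT, with 1 of them at 37.7 CPM, and in the other 9 genes the lines overlap.

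LOX10, a 13-lipoxygenase that in maize leaves supplies the route to green leaf volatiles, took more reads than any other gene of the set. It received 82996 to 147302 counts in each WT library and 69887 to 100630 in each PP2CKO library, and 92.2% to 94.8% of all lipoxygenase counts in every library. By mean CPM, which also grows with transcript length, it stood at rank 17 of all 45953 features. In WT its level was 9052, 6017 and 4525 CPM, and in PP2CKO it was 4490, 4588 and 5005 CPM. The WT libraries thus spread over a 2.0-fold range, the PP2CKO libraries over 1.11-fold, and WT replicate 3 lay inside the PP2CKO range. WT averaged 6531 ± 2307 CPM and PP2CKO averaged 4694 ± 274 CPM (SD, n = 3 each).

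The difference in LOX10 did not pass the test (log2 fold change -0.48 ± 0.24 SE, edgeR adjusted p = 0.252). Its 95% interval, which like those below is not adjusted for the number of genes, ran from 0.503 to 1.03 times the WT level. It depended on WT replicate 1, without which the log2 fold change was -0.17 (edgeR adjusted p = 0.663, the highest of a range from 0.028 over all alternatives). In whole leaves, fewer cells that express a gene and less RNA per cell cannot be told apart. It also depended on the scaling. As a share of unscaled library totals, LOX10 took 0.8999%, 0.657% and 0.521% in WT and 0.390%, 0.428% and 0.491% in PP2CKO, with no overlap. How many other features were separated on unscaled totals was not counted. With library size alone LOX10 was called lower (log2 fold change -0.67, edgeR adjusted p = 0.028). In that setting 1604 of 21206 tested features were called lower, against 442 under TMM. The median of all tested features shifted with it by -0.22, to -0.23. Relative to that median the LOX10 value was -0.44, and relative to the median under TMM it was -0.46.

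LOX8, the tasselseed1 lipoxygenase, starts the route to the jasmonate that directs sex determination in the maize tassel. LOX8 was the gene of the set with the largest fitted difference. It was at 6.70, 4.89 and 6.16 CPM in WT and at 7.12, 37.7 and 9.50 CPM in PP2CKO. All 3 PP2CKO libraries lay above all 3 WT libraries, as was so for 14.8% of all tested features. The lowest PP2CKO library was close to the highest WT library, and PP2CKO replicate 2 alone held 574 of the 1183 counts of the gene. WT averaged 5.92 ± 0.928 CPM and PP2CKO averaged 18.1 ± 17.0 CPM (SD, n = 3 each), a ratio of 3.06.

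The LOX8 difference fell short of the threshold (log2 fold change 1.61 ± 0.49 SE, edgeR adjusted p = 0.0677), with a 95% interval of 1.46 to 6.38 times the WT level. Most of its size came from PP2CKO replicate 2, without which the log2 fold change was 0.49 (edgeR adjusted p = 0.384). Without PP2CKO replicate 1 or 3, which lay closer to WT, the gene was called, at edgeR adjusted p = 0.0156 and 0.035. In those settings 878 of 21747 and 1141 of 21656 tested features were called higher. Of the settings that kept all libraries, no low-count filter called LOX8 as well (edgeR adjusted p = 0.00029), where 1672 of 29079 features were called higher. LOX8 was not called in 14 of 17 alternatives. Among these were DESeq2 (adjusted p = 0.173), limma voom (adjusted p = 0.206) and edgeR with robust dispersion (adjusted p = 0.247). Over all alternatives the adjusted p of LOX8 ran from 0.00029 to 0.384.

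LOX6 is a plastid lipoxygenase of maize that is set apart from both classes because it acts on fatty acid hydroperoxides rather than on the fatty acids. Its level was 425, 248 and 210 CPM in WT and 281, 237 and 253 CPM in PP2CKO. WT replicate 1 stood above the other 5 libraries, which lay within 210 to 281 CPM, and the lines overlapped. The log2 fold change was -0.20 ± 0.23 SE (edgeR adjusted p = 0.652), and the 95% interval of 0.621 to 1.23 times the WT level leaves out a 2-fold change in either direction. Without WT replicate 1 the log2 fold change was 0.16.

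Among the 5 genes of 9-lipoxygenases, Zm00001d042541 had the log2 fold change farthest from 0. It was at 11.7, 5.87 and 4.53 CPM in WT and at 2.63, 4.86 and 3.68 CPM in PP2CKO. WT replicate 1 was highest and PP2CKO replicate 1 lowest, and WT replicate 3 and PP2CKO replicate 2 overlapped. The log2 fold change was -0.98 ± 0.38 SE (edgeR adjusted p = 0.136, unadjusted p = 0.022). Without WT replicate 1 it was -0.49 (edgeR adjusted p = 0.535), and over all alternatives the adjusted p ran from 0.0539 to 0.535.

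Its neighbour in identifier number, Zm00001d042540, was at 5.35, 1.32 and 1.20 CPM in WT and at 1.28, 3.87 and 1.99 CPM in PP2CKO, from 251 counts in all. One library of each line was high, WT replicate 1 and PP2CKO replicate 2, so that the log2 fold change of -0.14 had an SE of 0.60 (edgeR adjusted p = 0.92). Its 95% interval of 0.368 to 2.25 times the WT level was the widest of the set on the log2 scale. Genes with consecutive numbers may be similar copies between which reads were split, which was not tested. With the counts of this pair added together before the fit, the log2 fold change was -0.71 ± 0.40 SE. The share of the pair's counts that fell to Zm00001d042541 was 68.6%, 81.6% and 79.0% in WT and 67.2%, 55.6% and 64.9% in PP2CKO. All 3 WT values lay above the PP2CKO values, but the exact 95% binomial interval of WT replicate 1, 62.8% to 74.0%, overlapped that of PP2CKO replicate 1, 54.0% to 78.7%, and such intervals cover counting error only.

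The second pair with consecutive numbers showed no consistent side. Zm00001d033623 was at 5.65, 2.82 and 2.02 CPM in WT and at 1.92, 6.24 and 3.03 CPM in PP2CKO, and its edgeR adjusted p was 0.933 (log2 fold change 0.09 ± 0.48 SE). Zm00001d033624 was at 35.5, 47.0 and 40.3 CPM in WT and at 17.1, 60.5 and 33.1 CPM in PP2CKO, with an edgeR adjusted p of 0.823 (log2 fold change -0.15 ± 0.33 SE). For both genes PP2CKO replicate 2 was the highest of the 6 libraries and PP2CKO replicate 1 the lowest, with WT in between. The share of the pair's counts that fell to Zm00001d033624 was 86.2% to 95.2% in WT and 89.9% to 91.6% in PP2CKO, so the ranges overlapped. With the pair added together the log2 fold change was -0.13 ± 0.32 SE.

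Zm00001d013493, the remaining 9-lipoxygenase gene, followed the same order. It was at 22.6, 18.5 and 15.9 CPM in WT and at 9.94, 35.9 and 13.4 CPM in PP2CKO. The WT libraries lay between the extremes of PP2CKO, which averaged 19.8 ± 14.1 CPM against 19.0 ± 3.40 CPM in WT (SD, n = 3 each). The log2 fold change was 0.05 ± 0.37 SE (edgeR adjusted p = 0.951), and without PP2CKO replicate 2 it was -0.70 (edgeR adjusted p = 0.114, the lowest of a range up to 0.978 over all alternatives).

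OPR7 and OPR8 are close paralogs that together carry the jasmonate-forming reductase activity of maize, and reads may have been shared between them. OPR7 was at 10.6, 11.4 and 8.12 CPM in WT and at 12.8, 9.26 and 7.76 CPM in PP2CKO. The lines overlapped almost fully, and the log2 fold change was -0.02 ± 0.24 SE (edgeR adjusted p = 0.973, 95% interval 0.686 to 1.42 times WT). OPR8 was at 19.3, 19.5 and 14.7 CPM in WT and at 13.9, 14.97 and 15.1 CPM in PP2CKO. WT replicates 1 and 2 were higher than the other 4 libraries, and WT replicate 3 lay inside the PP2CKO range. The log2 fold change of OPR8 was -0.28 ± 0.18 SE (edgeR adjusted p = 0.386, 95% interval 0.625 to 1.083 times WT). Changes of 2-fold or more in either direction lie outside both intervals. The ratio of OPR8 to OPR7 counts was 1.70 to 1.81 in WT and 1.09, 1.62 and 1.94 in PP2CKO.

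**Figure D2:**
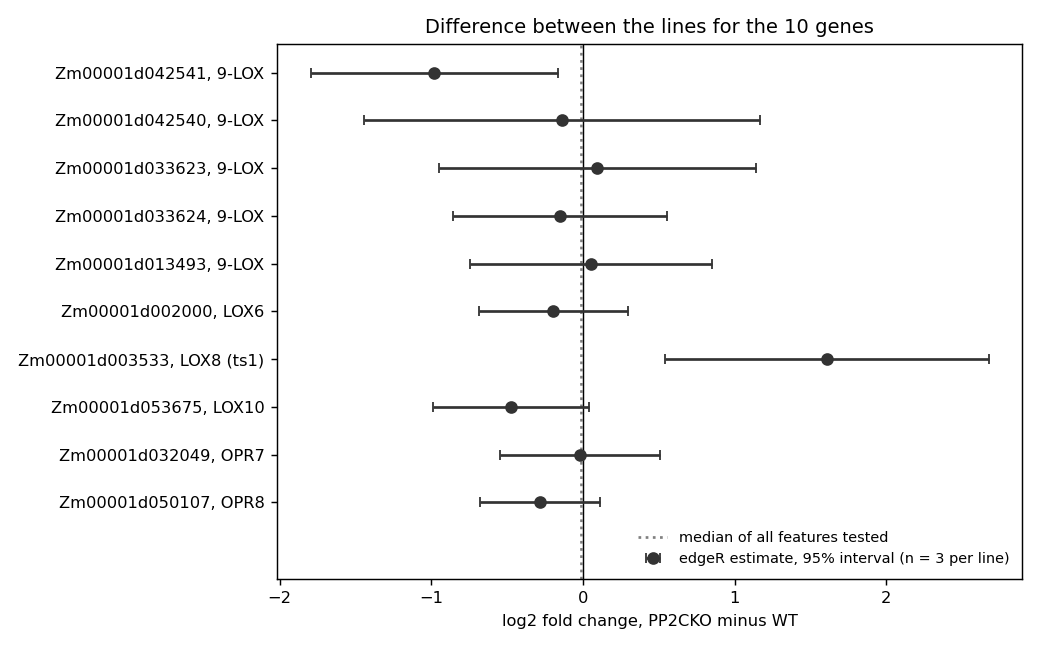
Fitted log2 fold change (PP2CKO minus WT) of each gene with its 95% interval from edgeR (n = 3 libraries per line); the dotted line is the median of all tested features, -0.01. LOX8 at 1.61 and Zm00001d042541 at -0.98 have intervals that leave out 0 before adjustment, and the other 8 intervals include it.

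The spread between libraries of a line was wide in several lipoxygenases. The biological coefficient of variation that edgeR estimated had a median of 0.318 over the 8 lipoxygenases and 0.193 over OPR7 and OPR8, against 0.205 over all tested features. In LOX6 and LOX10, the lipoxygenases with the most counts, it was 0.201 and 0.194. The features were not matched by level for this comparison. In WT, replicate 1 was the highest of the 3 in 7 of the 10 genes and the lowest of them in Zm00001d033624. How many of all features were highest in that library was not counted. Zm00001d042541, Zm00001d042540, LOX6 and LOX10 had their highest value of all 6 libraries there. Relative to the mean of each gene over the 6 libraries, WT replicate 1 was higher by 1.22, 1.30, 0.66 and 0.74 on the log2 scale in these 4 genes.

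In PP2CKO the spread of the 9-lipoxygenases and LOX8 lay between replicates 1 and 2. PP2CKO replicate 2 was the highest of its line in 6 genes, which were the 5 of the 9-lipoxygenases and LOX8. The same 6 genes had their lowest value of that line in PP2CKO replicate 1. Summed over the 5 genes, 9-lipoxygenase counts came to 32.9, 111 and 55.3 CPM in the PP2CKO libraries and to 80.7, 75.5 and 63.9 CPM in WT. The WT sums thus lay between the lowest and the highest PP2CKO sums. The spread was of another kind in LOX10, LOX6 and OPR8, whose PP2CKO libraries lay within 1.11-fold, 1.18-fold and 1.083-fold of each other. In OPR7, PP2CKO replicate 1 was the highest of its line at 12.8 CPM and replicate 3 the lowest at 7.76 CPM. PP2CKO replicate 2 was the highest of all 6 libraries in Zm00001d033623, Zm00001d033624, Zm00001d013493 and LOX8, while in Zm00001d042541 it lay among the WT values. What set it apart in those 4 genes was not tested.

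**Figure D3:**
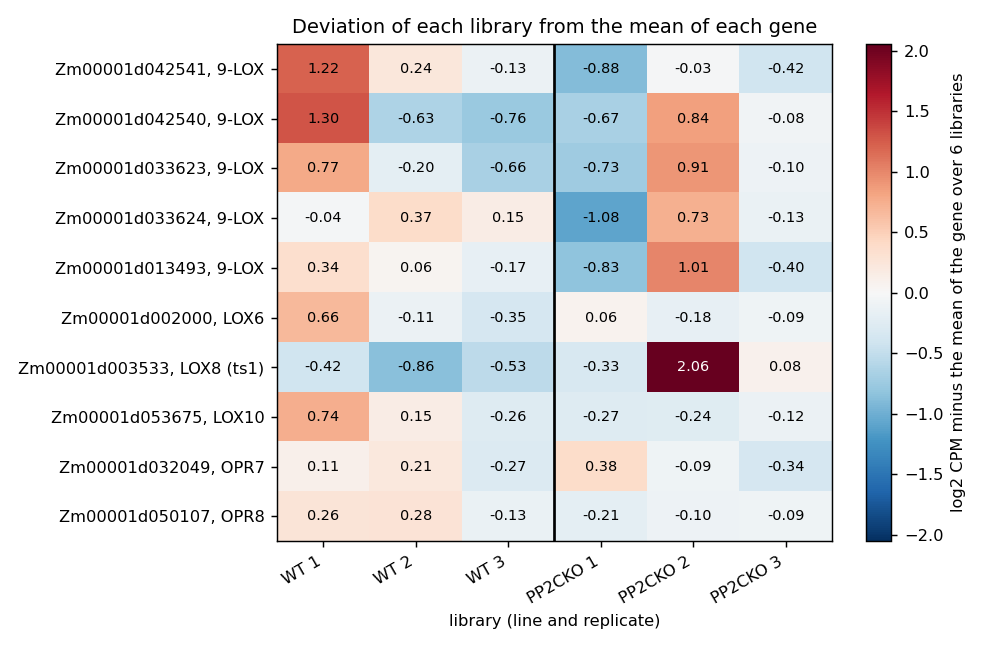
Log2 CPM (prior count 2) of each gene in each library minus the mean of that gene over the 6 libraries, WT left and PP2CKO right of the line; red is higher and blue lower. PP2CKO replicate 2 is highest in LOX8 at 2.06, and WT replicate 1 is highest in Zm00001d042540 at 1.30.

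**Figure D4:**
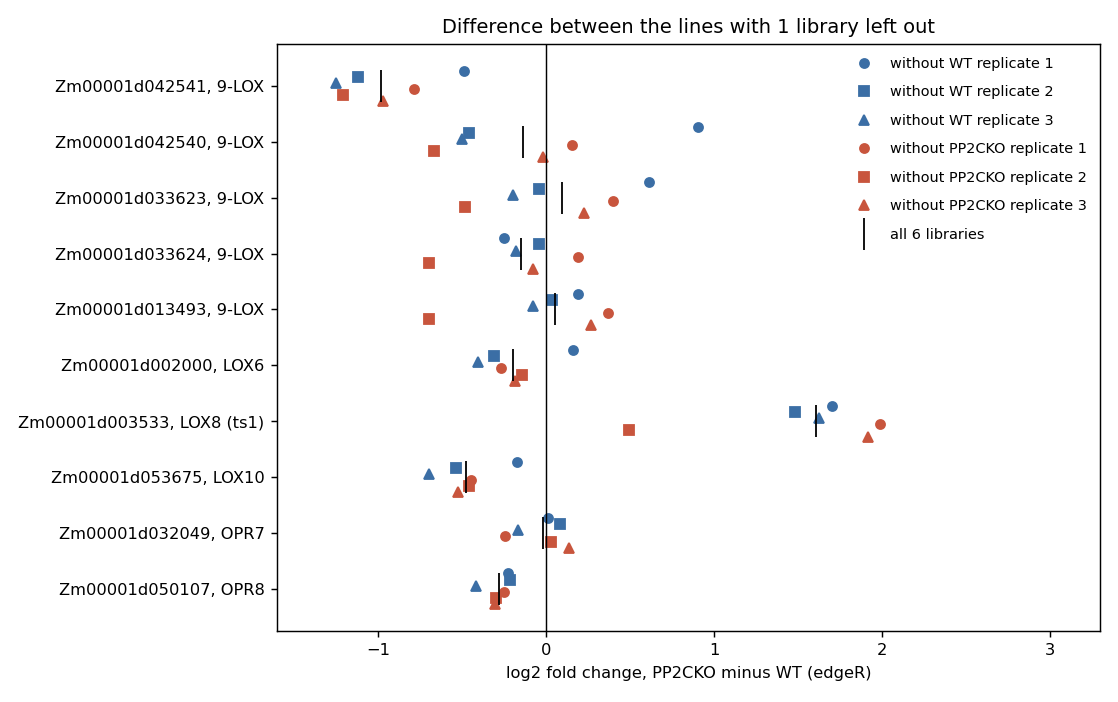
Fitted log2 fold change (PP2CKO minus WT, edgeR) of each gene with 1 library left out (symbols, coloured by the line of that library) and with all 6 (black bars). LOX8 drops to 0.49 without PP2CKO replicate 2, LOX10 moves to -0.17 without WT replicate 1, and OPR8 stays between -0.42 and -0.21.

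Over the 6 libraries, the non-member features whose log2 CPM followed LOX10 most closely were Zm00001d039656 (Pearson r = 0.991, Spearman rho = 0.943) and Zm00001d035014 (r = 0.982, rho = 0.886). They were picked as the highest of all tested features, so the values are a description and carry no p. Zm00001d039656 was at 7.87, 5.64 and 4.20 CPM in WT and at 4.11, 4.13 and 4.92 CPM in PP2CKO, so it shared the high WT replicate 1. Without WT replicates 1 and 2, which lay farthest from the median of LOX10, r was 0.982 for Zm00001d039656 and 0.579 for Zm00001d035014 over 4 libraries. Over these libraries LOX10 ran only from 4490 to 5005 CPM. PP2CKO replicate 3 alone stood apart in both LOX10 and Zm00001d039656, so the r of 0.982 rests mostly on that library.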

How the data were processed

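Poly(A)-selected leaf RNA was sequenced in 6 libraries, 3 per line. Per the labels' protocols, cleaned paired reads were aligned to B73 v4 with STAR 2.4.0j. The authors deposited raw counts per gene, not normalized, with replicates kept apart. The counter, annotation and strandedness were not given in the sources used here. Overlapping genes or similar copies may therefore share reads, and reads that diverge between KN5585 and B73 may be undercounted in both lines.

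From these counts, features were kept by filterByExpr (minimum count 10, minimum total 15), scaled by TMM and tested for genotype with edgeR 4.0.16 (quasi-likelihood, R 4.3.3), calling at Benjamini-Hochberg adjusted p below 0.05. Standard errors were derived from the F statistic. DESeq2 1.42.0, limma 3.58.1, other scalings and filters, thinning and leaving out each library were alternatives. The procedure was tested on simulated data, in which it called 49% of 100 changes of 2-fold and 94% of 100 changes of 4-fold. These shares are over simulated features and were not worked out for the level and spread of the 10 genes. Of the simulated features without a change, 0.0286% were called. All 10 genes are named, with the 2 features most like the gene of highest CPM. The members and lists were chosen with earlier results of these data known. Names and classes of the 10 genes came with that list; a RefSeq gene table (assembly Zm-B73-REFERENCE-NAM-5.0) holds the symbols of all 5 named genes but none of the 10 identifiers. It pairs 0 of the 33 jasmonate pathway symbols it holds, some of them members, with the count table, so that pathway is not analysed here beyond the 10 genes. No sequence is printed, as none was used here.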

Additional observations from a re-analysis of the deposited data

How the results depend on the processing

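The count of members called was 0 higher and 0 lower under most alternatives, but 1 was called higher without a low-count filter (LOX8) and 1 lower with library size alone (LOX10). Over all features, 1672 of 29079 were called higher without the filter, and 1604 of 21206 lower with library size alone. Leaving out 1 library gave 0 to 1 called higher and 0 called lower. The call came without PP2CKO replicate 1 or 3, where 878 of 21747 and 1141 of 21656 features were called higher. The log2 fold change turned sign in 6 genes, none of them called in any alternative. For Zm00001d042540 it was 0.10 with limma voom and 0.11 with a replicate block. For Zm00001d033623 it was -0.0799 with library size alone. The log2 fold change of -0.13 with its pair summed is that of the sum, in which Zm00001d033624 held most counts. For Zm00001d013493 it was -0.14 with library size alone, -0.17 with limma voom and -0.14 with a replicate block, and for OPR7 (Zm00001d032049) it was 0.0107 after thinning. With 1 library left out, the range was -0.66 to 0.90 for Zm00001d042540, -0.48 to 0.62 for Zm00001d033623, -0.70 to 0.19 for Zm00001d033624, -0.70 to 0.37 for Zm00001d013493, -0.40 to 0.16 for LOX6 (Zm00001d002000) and -0.25 to 0.13 for OPR7. The causes were not tested. Across features, libraries with the same number deviated together only weakly (r = 0.0525, 0.0888 and 0.0847; 0.1 was asked for pairing), though all 6 libraries correlated best with their own number. The replicate block called 0 of the 10 genes in either direction. Over all 21206 features it called 1323 higher and 537 lower, against 1092 and 442 without the block. With 3 libraries a line, a missing call does not show that a gene kept its level.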
